A study of Homo sapiens with 14 samples.

Results

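The 10 genes described here, EXOSC1 to EXOSC10, encode core subunits of the human RNA exosome together with 1 of its ribonucleases. They were chosen by gene name, and all 10 were listed in both comparisons of the study, among 11261 genes in one and 11835 in the other. The set came to attention through EXOSC4, which was chosen for its higher level after an enhancer deletion, so EXOSC4 is described in that comparison with no test. The other 9 genes came with it because they encode the same complex.

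The cells were teloHAEC, an immortalised line of human aortic endothelial cells. In the siRNA experiment, 4 libraries came from cells reverse transfected with Silencer Select siRNA against CALCRL, which encodes the calcitonin receptor-like receptor, and 4 from cells given scrambled siRNA, all lysed after 24 h. In the deletion experiment, 3 libraries came from cells electroporated with Cas9 ribonucleoprotein whose guides flank the CALCRL enhancer numbered 8, and 3 from cells given Cas9 with a control guide against HPRT, all collected after 2 days. RNA was sequenced from transcript 3′ ends. All cells were thus transfected or electroporated, the deletion controls received a guide against another gene, HPRT, no clone is named for the deletion cells, and the share of edited alleles was not analysed here. In such bulk RNA, fewer cells with a transcript and less of it per cell cannot be told apart. The labels mention an electroporation per replicate but do not say whether the siRNA libraries came from separate cultures, so the p-values may measure technical spread only.

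The RNA exosome degrades and trims RNA from the 3′ end. Its core is a barrel: a ring of 6 subunits (EXOSC4 to EXOSC9) capped by 3 RNA-binding subunits (EXOSC1, EXOSC2 and EXOSC3). In human cells the barrel itself has no nuclease activity, and RNA is cut by the associated enzymes EXOSC10, DIS3 and DIS3L. Nuclear exosomes process ribosomal and small nucleolar RNA precursors and remove unstable transcripts, while cytoplasmic exosomes degrade mRNA. Different cofactors feed RNA to them in each compartment.

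The files hold the authors' DESeq2 results, with 1 mean normalised count, log2 fold change, standard error (SE) and adjusted p per gene and no value for a single library. The level of each gene in each group was therefore computed from its mean count and fold change in the authors' deposited table. Fold changes are treated over control throughout, and a gene is called at an adjusted p under 0.05 over all genes of its table. CALCRL, the gene under study, was lower in the authors' deposited tables for both experiments, by a log2 fold change of -1.56 (SE 0.17, adjusted p = 1.9e-17) with siRNA and of -1.47 (SE 0.43, adjusted p = 0.00962) with the deletion. The median SE over all genes was 0.17 with siRNA and 0.41 after the deletion, so the deletion experiment measured each gene less precisely. HPRT1, the gene of the control guide, had a deposited log2 fold change of -0.09 in the deletion experiment (94.1% of control, 95% interval 47.4% to 187%). Each table listed 11 of 12 endothelial marker genes (PECAM1 was listed in neither) and 5 of 17 markers of other cell types. Of the 11 endothelial genes, 5 lay above 0 and 6 below in each experiment. Called among them were CDH5 (-1.44) and KDR (-1.05), lower after the deletion, and EGFL7 (-0.46), lower with siRNA, as log2 fold changes in the authors' deposited tables. Of the 5 markers of other cell types, 4 lay above 0 after the deletion and 3 with siRNA, and the 1 called was the epithelial keratin gene KRT18 (1.13 after the deletion). The endothelial markers summed to 2188 CPM (normalised counts scaled to the total of the table) with scrambled and 2126 with CALCRL siRNA, and to 1865 in the deletion control and 1547 after the deletion. Those of other cell types summed to 648 and 567 in the siRNA experiment and to 431 and 877 in the deletion experiment. Most of these sums is 1 gene, KRT18. Over both groups it made up 481 of 607 CPM with siRNA and 579 of 654 CPM in the deletion experiment. KRT18 stood at 1874 normalised counts in the deletion control and 4097 after the deletion. The part of these marker changes in the results below was not tested.

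The exosome genes did not change detectably when CALCRL was silenced. Of the 10, 0 were called in the authors' deposited table, against 3.46% of all genes (390 of 11261, with 1.05% called higher and 2.42% lower), and 0 had an unadjusted p under 0.05, against 12% of all genes. Their log2 fold changes ran from -0.16 to 0.12 with a median of -0.02, and their SD of 0.09 was smaller than that over all genes, 0.27. The SE of each member was 0.86 to 1.36 times that typical of genes with a like mean count. The 95% interval of every member held 0.

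Among the cap genes, EXOSC1 stood at 182 normalised counts with scrambled siRNA and 163 with CALCRL siRNA, which is 89.7% of control with a 95% interval of 74.4% to 108%. EXOSC2 stood at 150 and 145, or 97.0% (78.5% to 120%). EXOSC3, in which inherited mutations cause pontocerebellar hypoplasia, was the least abundant member at 87.9 and 95.7, or 109% (78.1% to 152%). All 3 intervals held 100%, and that of EXOSC3 was the widest of the 10.

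In the ring, whose subunits resemble bacterial RNase PH but lack its activity, EXOSC4 stood at 149 normalised counts with scrambled siRNA and 140 with CALCRL siRNA, or 94.1% of control (95% interval 78.3% to 113%). EXOSC5 stood at 139 and 130, or 93.4% (77.7% to 112%). EXOSC6 stood at 306 and 317, or 103% (84.9% to 126%). Together these 3 intervals reach from 77.7% to 126% of control. EXOSC7 stood at 202 and 220, or 109% (89.6% to 133%), and EXOSC8 at 322 and 305, or 94.9% (77.7% to 116%). EXOSC9, the most abundant member, stood at 369 in both groups, or 100% (81.3% to 123%). The catalytic subunit EXOSC10, a nuclear 3′ exonuclease enriched in the nucleolus, stood at 238 and 242, or 101% (84.1% to 122%).

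**Figure D1:**
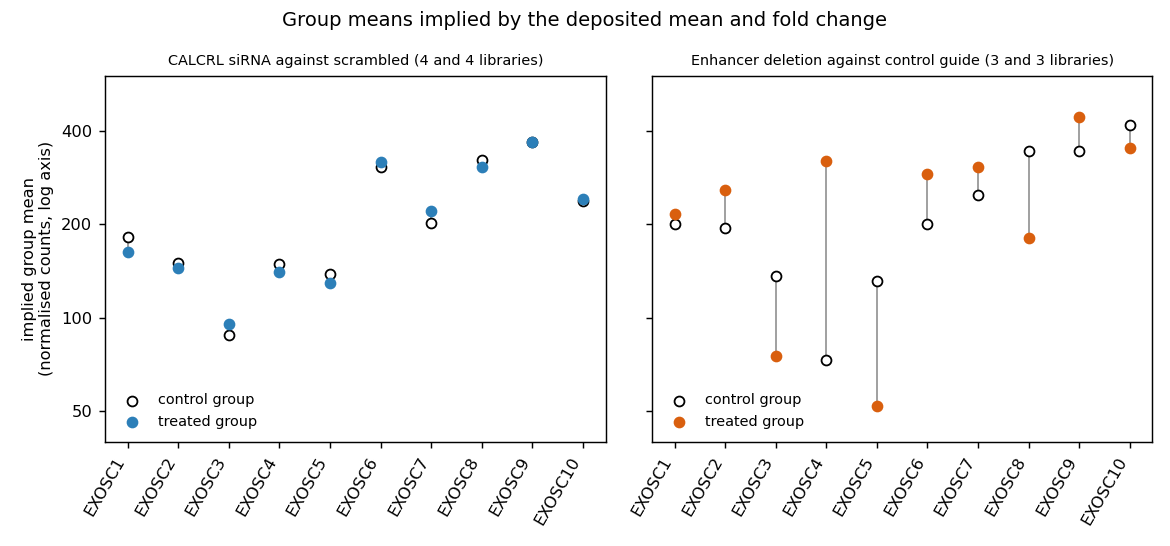
Mean normalised count of each exosome gene (log axis) in the control and the treated group of each experiment, computed from the deposited mean count and fold change; no value exists per library. With siRNA the paired points nearly coincide for all 10 genes, while after the enhancer deletion EXOSC4 goes from 72.9 to 319 and EXOSC5 from 131 to 52.1.

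After the enhancer deletion the exosome genes lay on both sides of 0. Their log2 fold changes in the authors' deposited table ran from -1.33 for EXOSC5 to 2.13 for EXOSC4. Of them 6 lay above 0 and 4 below, with a median of 0.20 and an SD of 0.98. Part of this spread is EXOSC4, chosen for its value here. The other 9 ran from -1.33 to 0.54, with an SD of 0.69, against 1.04 over all genes. EXOSC4 was the 1 member called, against 15.8% of all genes (1874 of 11830), and nothing is read from that count because this value chose the gene. Of the other 9, 0 were called in the authors' deposited table by DESeq2, with a median of 0.11, and 2 (EXOSC5 and EXOSC8) had an unadjusted p under 0.05, against 29.7% of all genes. Leaving out EXOSC4, the members were thus called no more often than genes at large.

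EXOSC4, a ring subunit that pairs with EXOSC9, stood at 72.9 normalised counts in the control group and 319 in the deletion group, 4.37-fold higher with a 95% interval of 2.31 to 8.24. The authors' deposited table gives a log2 fold change of 2.13 with an SE of 0.47. Because EXOSC4 was chosen for this value, the estimate may be too high and the interval does not have its stated coverage. The SE of EXOSC4 was 1.38 times that typical of genes with a like mean count. As a share of all normalised counts of its table, EXOSC4 stood at 14.2 CPM in the control group and 61.8 in the deletion group, while both groups of the siRNA experiment lay between, at 32.8 and 30.8. For EXOSC5 both siRNA groups, at 30.5 and 28.5 CPM, lay above both groups of the deletion experiment, at 25.5 and 10.1. The tables were normalised separately, so these levels are set side by side without a test.

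None of the other ring genes had an estimate near that of EXOSC4, which follows in part from its choice for this value. EXOSC5, which pairs with EXOSC8 in the ring, stood at 131 normalised counts in the control group and 52.1 in the deletion group, or 39.7% of control (95% interval 19.2% to 81.9%). The authors' deposited table gives -1.33 on the log2 scale (SE 0.53, adjusted p = 0.0671), which does not pass the threshold. EXOSC8 stood at 343 and 180, or 52.4% (30.4% to 90.4%), with a deposited adjusted p of 0.0918. EXOSC6, which pairs with EXOSC7, stood at 200 and 291, or 145% (99.1% to 213%), with a deposited adjusted p of 0.180. EXOSC7 stood at 248 and 306, or 123% (83.2% to 182%, deposited adjusted p = 0.516). EXOSC9 stood at 343 and 441, or 129% (94.7% to 175%, deposited adjusted p = 0.273). Within each of the 3 ring pairs the point estimates had the same sign, though the sign of EXOSC4 was set by its choice. None of the estimates but that of EXOSC4 was called. They were 2.13 for EXOSC4 beside 0.36 for EXOSC9, -1.33 for EXOSC5 beside -0.93 for EXOSC8, and 0.54 for EXOSC6 beside 0.30 for EXOSC7, all as log2 fold changes in the authors' deposited table. On the log2 scale the 95% intervals of EXOSC9 (-0.08 to 0.81), EXOSC6 (-0.01 to 1.09) and EXOSC7 (-0.26 to 0.87) held 0. The signs of these genes are thus uncertain, and the likeness of signs is not read as partners moving together. Whether partners move together or differ was not tested, since no value per library is at hand to give their covariance.

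Among the cap genes after the deletion, EXOSC3 stood at 136 normalised counts in the control group and 75.2 in the deletion group, or 55.1% of control (95% interval 24.3% to 125%, deposited adjusted p = 0.345). EXOSC1 stood at 201 and 216, or 108% (61.5% to 189%, deposited adjusted p = 0.895). EXOSC2 stood at 195 and 259, or 133% (78.6% to 224%, deposited adjusted p = 0.507). All 3 intervals held 100%, and each was wider than that of the same gene with siRNA. The catalytic EXOSC10 stood at 418 and 351, or 84.0% (54.6% to 129%, deposited adjusted p = 0.636).

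**Figure D2:**
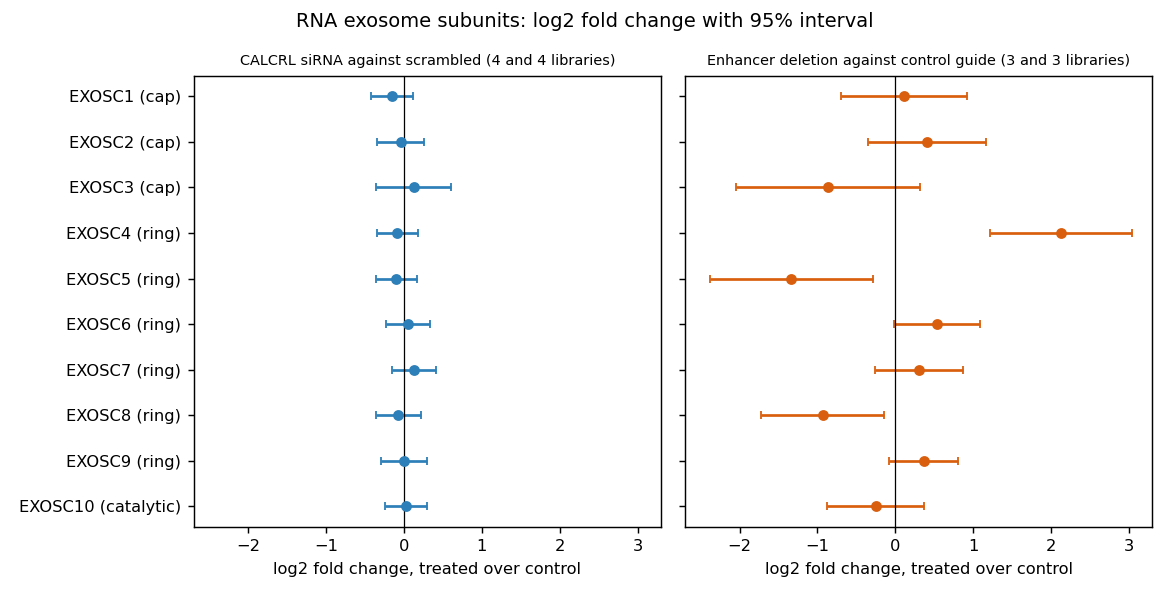
Deposited log2 fold change of each exosome gene with its 95% interval (lfcSE, normal), grouped by place in the complex, for CALCRL siRNA and for the enhancer deletion. The siRNA intervals are narrow and all hold 0; in the deletion the intervals are wider, those of EXOSC5 and EXOSC8 lie below 0, and EXOSC4, chosen for this value, has the highest estimate at 2.13.

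The difference between the experiments (siRNA minus deletion log2 fold change, computed from the deposited values with a z test adjusted over 10891 genes) did not pass the threshold for any of the 9 members other than EXOSC4, against 13.7% of all genes (1493). At an unadjusted p under 0.05 there were 2 of the 9, against 28.3% of all genes. These were EXOSC5 with a difference of 1.23 (SE 0.55, adjusted p = 0.111, 95% interval 0.16 to 2.31) and EXOSC8 with 0.86 (SE 0.43, adjusted p = 0.166, interval 0.02 to 1.69). For EXOSC3 it was 0.98 (SE 0.65, adjusted p = 0.317, interval -0.29 to 2.26). The other 6 differences lay between -0.49 for EXOSC6 and 0.27 for EXOSC10. The experiments also differ in delivery, time and control, and their parts in these differences cannot be told apart.

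In the deletion experiment fold changes followed base composition. The GC content of the last 500 bases of each transcript (GENCODE 29, GRCh38) and the deposited log2 fold change had a Spearman correlation across genes of 0.309, against 0.0815 with siRNA, and genes are not independent replicates. Genes under 35% GC had a median of -0.22 (3214 genes) and those of 65% or more a median of 0.76 (175 genes). The exosome genes span most of this range, from 32.6% for EXOSC3 to 65.6% for EXOSC4, with EXOSC8 at 35.8%, EXOSC6 at 36.4%, EXOSC9 at 38.8% and EXOSC5 at 59.0%. The trend at the GC content of EXOSC4 was 0.73, and its log2 fold change was 1.40 with the trend removed. For EXOSC5 removal went the other way, since it was low among GC-rich genes: its log2 fold change became -1.84, with a Benjamini-Hochberg adjusted p of 0.0108 over all genes. With the GC content of the whole transcript it was -1.75 (adjusted p = 0.0155), so EXOSC5 passes the threshold in both of these settings and not in the deposited table. Its difference between the experiments also passed, at 1.72 (adjusted p = 0.0250) and 1.64 (adjusted p = 0.0322). EXOSC8 went to -0.74, EXOSC3 to -0.63 and EXOSC6 to 0.73. CALCRL has 24.2% GC in its last 500 bases, where the trend was -0.41. Its log2 fold change after the deletion was -1.05 (SE 0.43) with that trend removed, so it too was smaller than the deposited value. The part of base composition in the deletion-experiment changes beyond these values was not tested.

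**Figure D3:**
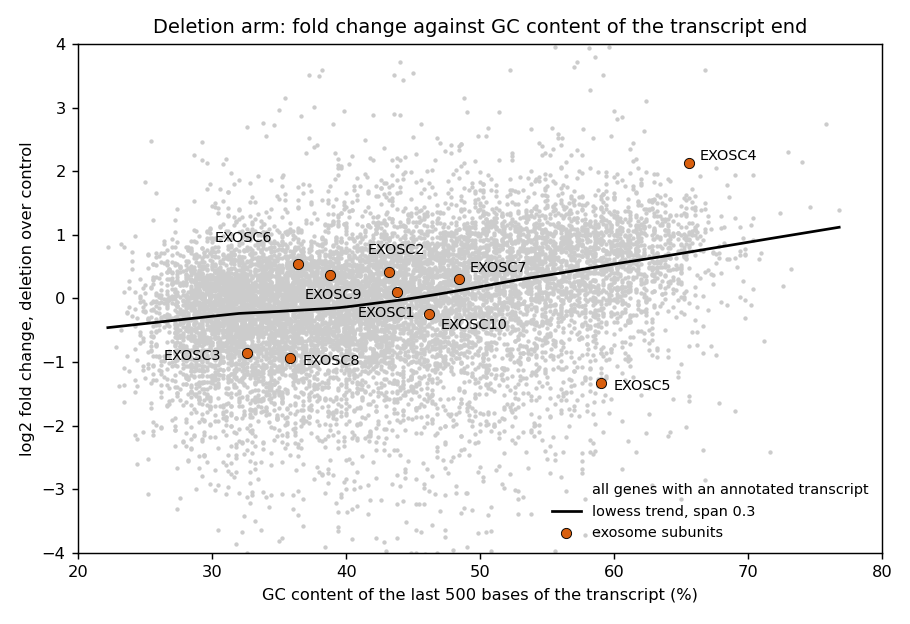
Deposited log2 fold change of each gene against GC percent of the last 500 bases of its transcript in the deletion experiment, with the fitted trend (line) and the exosome genes marked. The axis covers -4 to 4 and genes outside it are not drawn. In the deletion the trend rises with GC, EXOSC4 (65.6% GC) lies above it and EXOSC5 (59.0% GC) far below it.

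The 10 genes lie on 9 chromosomes. EXOSC4 is on the plus strand at chr8:144078626-144080647 (GRCh38, GENCODE 29), EXOSC5 on the minus strand at chr19:41386374-41397479 and EXOSC8 on the plus strand at chr13:36998816-37009613. CALCRL is on chromosome 2, which holds none of them. Around EXOSC4, 12 other genes with a start within 250 kb were listed. After the deletion, 3 of them were called higher in the authors' deposited table and 0 lower, against 7.4% and 8.44% of all genes, and 11 of 12 lay above 0 with a median of 0.57. The called genes were GPAA1, a subunit of the enzyme that attaches GPI anchors, GRINA, a membrane protein linked to calcium homeostasis, and HSF1, the heat shock transcription factor.

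GPAA1 starts 3.96 kb beyond the start of EXOSC4 on the same strand. It stood at 322 normalised counts in the control group and 813 in the deletion group. Its log2 fold change in the authors' deposited table was 1.33 (SE 0.33, adjusted p = 0.00177). GRINA, at -88.6 kb on the other side, stood at 297 and 807 (deposited log2 fold change 1.44, SE 0.36, adjusted p = 0.00195). HSF1, 213 kb away, stood at 541 and 810 (deposited log2 fold change 0.58, SE 0.20, adjusted p = 0.0276). GRINA lies within PARP10, and HSF1 overlaps DGAT1, each on the opposite strand, so reads of these genes may be mixed if strand was not used. CYC1, which encodes cytochrome c1 and starts 16.4 kb from EXOSC4, had a deposited value of -0.25 (SE 0.28, adjusted p = 0.585). The other neighbours had deposited log2 fold changes of 1.94 for PARP10 (adjusted p = 0.0809), 1.02 for MROH1, 0.73 for PUF60, 0.56 for SHARPIN, 0.50 for MAF1, 0.40 for DGAT1, 0.33 for PLEC and 0.09 for NRBP2. The neighbours are GC-rich, with a median of 61.2% in the last 500 bases. For the 7 neighbours within 100 kb the median log2 fold change was 1.02, and 0.70 with the GC trend removed. Over all 12 the median was 0.12 with the GC trend removed, and 0 of 12 were called. GRINA then stood at 0.87 (adjusted p = 0.0871) and GPAA1 at 0.70 (adjusted p = 0.145). With siRNA the 1 neighbour called in the authors' deposited table was PLEC, a cytoskeletal linker, which fell by 0.46 (SE 0.11, adjusted p = 0.00315), and GPAA1 was at -0.16 (adjusted p = 0.487).

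**Figure D4:**
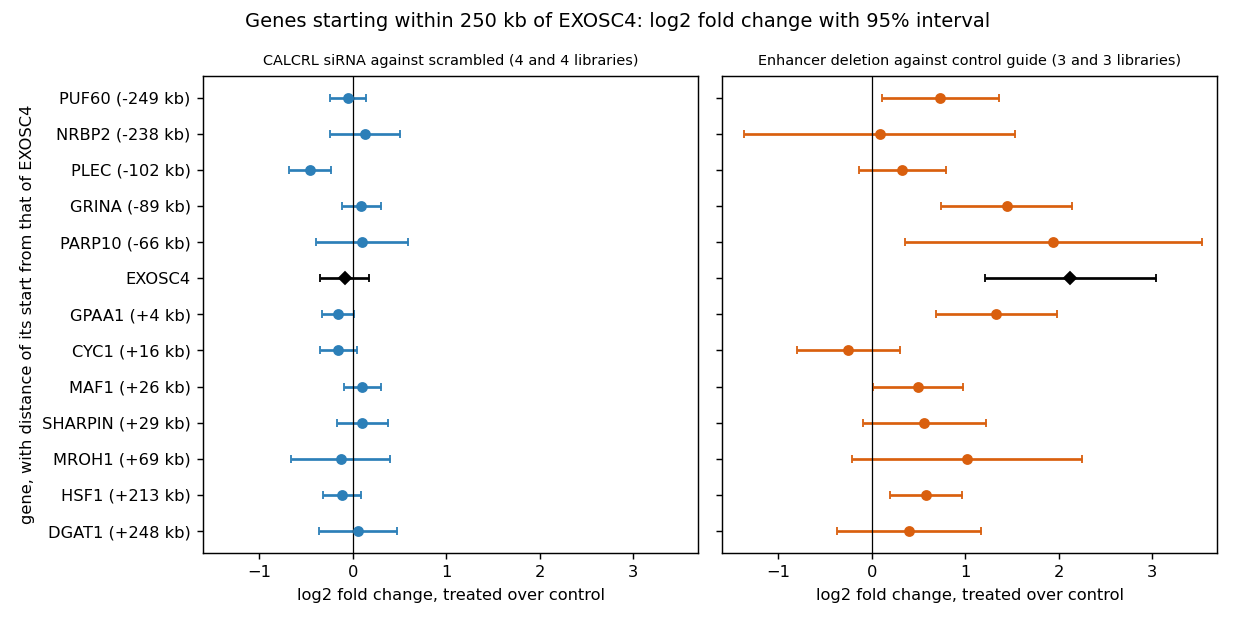
Deposited log2 fold change with its 95% interval for EXOSC4 and the 12 listed genes starting within 250 kb, in order of the distance of each start from that of EXOSC4 (kb beside each name), in both experiments. In the deletion EXOSC4, chosen for this value, is highest at 2.13. CYC1, at -0.25, is the one gene below 0 there, while with siRNA PLEC, at -0.46, lies farthest from 0.

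For EXOSC8 and EXOSC9 another listed gene covers the transcript's 3′ end on the opposite strand, and whether counting used strand is not given in the sources used here. SUPT20H, a transcription co-activator subunit, overlaps EXOSC8 by 302 bases and stood at -0.55 (SE 0.25, adjusted p = 0.115) after the deletion in the authors' deposited table. CCNA2, the cyclin of S phase and mitotic entry, overlaps EXOSC9 by 578 bases and stood at -0.23 after the deletion and at -0.35 (adjusted p = 0.107) with siRNA. The values of EXOSC8 and EXOSC9 are uncertain to that degree. None of the other 8 members had such an overlap at the end of the transcript.

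Among the genes whose deposited log2 fold changes in the 2 comparisons lay nearest to those of EXOSC4 were ZNF324, LIN7B, CLN6 and RP11-649A18.7. Their distances in the plane of these values were 0.07 to 0.12. With 2 comparisons this likeness says only that they had a like pair of values.

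DIS3 and DIS3L, the exosome's other nucleases, were not called in either table. DIS3, the main nuclear enzyme, stood at a deposited log2 fold change of 0.08 with siRNA and 0.13 (SE 0.24, adjusted p = 0.755) after the deletion. DIS3L, its cytoplasmic counterpart, stood at -0.70 (SE 0.25, adjusted p = 0.103) and 0.63 (SE 0.54, adjusted p = 0.458) in the authors' deposited tables. DIS3L2, a related enzyme that acts without the exosome, stood at 0.19 and 1.27 (SE 0.66, adjusted p = 0.180).

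The genes that feed RNA to the exosome, compete with it or depend on it were followed in 7 lists. Over all lists, 3 of 100 listed genes (3%) were called with siRNA, against 3.46% of all genes, and 23 of 108 (21.3%) after the deletion, against 15.8%. Of the 23, 10 were also called under both removals of the GC trend, 16 under at least 1 of them, and each removal added 5 genes. With a Student t reference, or with Wald scores divided by their robust SD, 0 genes of any list were called after the deletion.

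Of 23 nuclear cofactors, 0 were called with siRNA (median 0.05), against 3.46% of all genes. After the deletion 2 rose and 2 fell (median 0.18), or 17.4% of the list, against 15.8% of all genes called. SRRT, which links the cap-binding complex to RNA decay, rose by 1.36 on the log2 scale in the authors' deposited table (SE 0.35, adjusted p = 0.0033), and WDR74, a ribosome assembly factor, rose by 1.07 (SE 0.36). RBM7, the RNA-binding subunit of the nuclear exosome targeting complex, fell by 1.33 (SE 0.50, adjusted p = 0.0478), and PAPD7, a non-canonical poly(A) polymerase, fell by 1.78 (SE 0.66, adjusted p = 0.0482). With the trend of GC in the last 500 bases removed these 4 stood at 0.92, 0.61, -1.06 and -1.62 and were not called, while SRRT (1.06) and PAPD7 (-2.08) were called with the whole-transcript trend removed. Other central cofactors were not called in either deposited table. After the deletion, the helicase gene SKIV2L2 stood at 0.55 (adjusted p = 0.152), MPHOSPH6 at 0.49 (adjusted p = 0.125), C1D at -0.79 (adjusted p = 0.176), ZCCHC8 at -0.10, ZFC3H1 at 0.11 and PAPD5 at 0.28. MPHOSPH6, which tethers the helicase to the core, was called with either GC trend removed, at 0.76 (adjusted p = 0.0151) and 0.75 (adjusted p = 0.0169), and SKIV2L2 with that of the whole transcript, at 0.77 (adjusted p = 0.0387).

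Of the cytoplasmic cofactors, 1 of 10 was called lower with siRNA, and 1 of 9 was called higher and 3 lower after the deletion (median -0.43). Over all genes, 2.42% were called lower with siRNA, and 7.4% higher and 8.44% lower after the deletion. WDR61 (deposited log2 fold change -1.33, SE 0.34, adjusted p = 0.0027) and TTC37 (-0.75, SE 0.24, adjusted p = 0.0165), subunits of the SKI complex that threads mRNA into the cytoplasmic exosome, fell. The helicase gene of that complex, SKIV2L, stood at 0.26 and HBS1L at -0.15 in the same deposited table, neither of them called. Among proteins that bind AU-rich elements and recruit decay enzymes, KHSRP rose by 1.17 (SE 0.26, adjusted p = 0.0005) and ZFP36L1 fell by 1.13 (SE 0.36, adjusted p = 0.0193) in the authors' deposited table. TTC37 (-0.49) and ZFP36L1 (-0.89) were not called with the trend of GC in the last 500 bases removed. With that of the whole transcript removed, ZFP36L1 was called (-1.07) and TTC37 was not (-0.50). With siRNA, ZFP36L2, a relative of ZFP36L1, fell by 0.66 (SE 0.18, adjusted p = 0.0137) in the authors' deposited table.

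Decay from the 5′ end, the route that runs parallel to the exosome, had 18 listed genes. With siRNA DCP2, the decapping enzyme, fell by 0.68 (SE 0.17, adjusted p = 0.0025) in the authors' deposited table and was the 1 gene called. That is 5.56% of the list, against 3.46% of all genes. After the deletion PATL1, which promotes decapping, fell by 1.91 (SE 0.40, adjusted p = 0.0002) and LSM2 of the LSM ring rose by 0.80 (SE 0.26, adjusted p = 0.0202). These are 11.1% of the list, against 15.8% of all genes called. LSM2 was not called with either GC trend removed (0.65 and 0.66). Among 13 other 3′ exonucleases, 0 were called with siRNA, against 3.46% of all genes. After the deletion REXO2, which degrades very short RNAs, fell by 1.06 (SE 0.29, adjusted p = 0.0047) and REXO4 rose by 1.24 (SE 0.35, adjusted p = 0.0067) in the authors' deposited table. These are 15.4% of the list, against 15.8% of all genes called. With the trend of GC in the last 500 bases removed REXO4 stood at 0.89 and was not called, and with that of the whole transcript at 0.95 and was.

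The rRNA maturation list, whose products work on the precursors the nuclear exosome trims, had more genes higher than lower after the deletion. Of its 26 genes, 7 rose and 0 fell in the authors' deposited table, 22 lay above 0, and the median was 0.37, against 7.4% of all genes called higher, 8.44% lower and a median of 0.00. The genes with the lowest adjusted p were FBL, the methyltransferase of box C/D snoRNPs (1.51, SE 0.34, adjusted p = 0.0006), RRP7A (1.07, SE 0.25), RRP1 (1.41, SE 0.37), DKC1, the pseudouridine synthase (0.94, SE 0.26), and RRP12 (1.58, SE 0.47). With the trend of GC in the last 500 bases removed the median was 0.53, 5 of the 7 were still called, RRP12 (1.16) and PES1 (0.63) were not, and UTP23 was added. With that of the whole transcript 4 of the 7 were still called, without RRP12 (1.27), PES1 and NOP56, and 2 were added. With siRNA, 1 of 26 was called in the authors' deposited table (3.85%, against 3.46% of all genes). This was UTP20, which fell by 0.46 (SE 0.13, adjusted p = 0.0133).

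Host genes of small nucleolar RNAs, whose spliced transcripts are often short-lived, had more genes lower than higher after the deletion. Of 17 listed, 3 fell and 1 rose in the authors' deposited table, 4 lay above 0, and the median was -0.52, against 8.44% of all genes called lower and 7.4% higher. SNHG15 fell by 2.63 (SE 0.61, adjusted p = 0.0009), SNHG7 by 1.59 (SE 0.50, adjusted p = 0.0179) and SNHG1 by 0.93 (SE 0.32, adjusted p = 0.0302), while SNHG9 rose by 1.38 (SE 0.40, adjusted p = 0.0094). SNHG9 was not called with the GC trend removed by either measure, nor SNHG1 with that of the whole transcript. With siRNA 0 of 8 listed were called, against 3.46% of all genes.

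**Figure D5:**
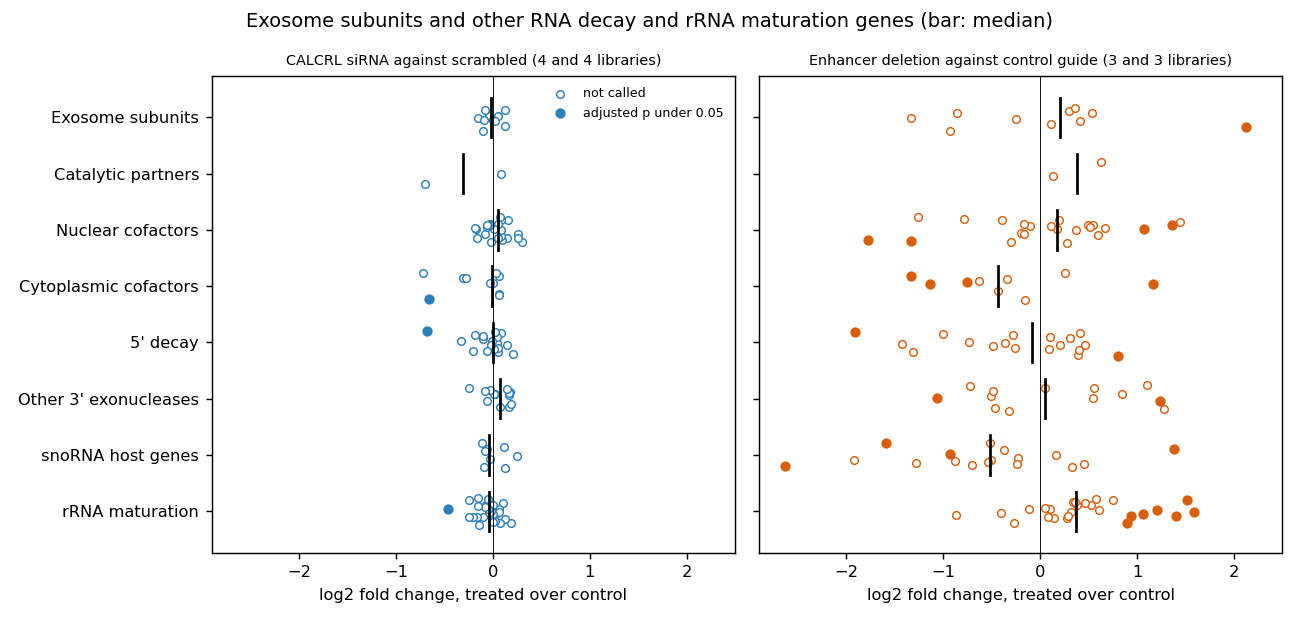
Deposited log2 fold change of each listed gene (points) in the 7 lists around the exosome and of the exosome genes, in both experiments, with called genes marked and the median of each list as a bar. After the deletion the rRNA maturation list has its median at 0.37 and the snoRNA host genes at -0.52; with siRNA the medians lie between -0.04 and 0.07 except for the pair of catalytic partners, DIS3 and DIS3L.

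The siRNA table also bears on sequence. The 7-base word GTAACAA was picked from these same data, after values were seen, as a word frequent in the 3′ UTRs of genes called lower with siRNA, so its counts are a description. It occurs on the sense strand of the 3′ UTR (longest per gene in GENCODE 29) in 155 of 266 genes called lower with siRNA (58.3%) and in 1085 of 10644 genes in all (10.2%). None of the 10 exosome genes holds it, and 0 of them were called with siRNA. Their 3′ UTRs run from 57 bases for EXOSC4 to 4307 for EXOSC6. Of the 3 list genes called lower with siRNA, 2 hold the word, DCP2 (3′ UTR of 7489 bases) and ZFP36L2 (1920 bases), and UTP20 does not. A longer 3′ UTR has more places for a match, and these counts are not adjusted for length. Over all lists 6 of 91 genes hold it (6.59%), so 4 holders were not called lower with siRNA. The sites of DCP2 and ZFP36L2 are shown with 10 bases on each side because these are the decay genes that fell, with the word in capitals, on GRCh38, in the 3′ UTR of DCP2 at chr5:113019619-113019645 (plus strand) and of ZFP36L2 at chr2:43222515-43222541 (minus strand).
DCP2: tttttcttcaGTAACAAaaacagggaa
ZFP36L2: gtttttgaatGTAACAAgataagtcaa
A match is no evidence that an siRNA or a microRNA binds there, and its absence from the exosome genes speaks only of these letters in these windows.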

How the data were processed

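RNA from 14 teloHAEC libraries was sequenced with QuantSeq 3′ FWD, which reads the 3′ end of transcripts, in single-end reads of 86 cycles, per the labels' protocols. The authors deposited 1 DESeq2 table per experiment, with decimal commas. Per the file headers it gives a mean normalised count, a log2 fold change, its SE, a Wald score (stat) and p-values before and after adjustment, 1 row per gene. The submitters' processing notes name edgeR 3.24.3 and hg19 with no role. Aligner, annotation and counting strand are not given in the sources used here. The tables hold no value per library, so the planned count tests were not possible and depth per library is unknown. The mean counts sum to 4547165 with siRNA and 5153709 in the deletion experiment. The adjusted p equals a Benjamini-Hochberg adjustment of the deposited p, and 5 deletion genes have none.

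From the deposited values, group means, 95% normal intervals and differences between experiments were computed (Python 3.11.15, pandas 2.3.3, scipy 1.17.1), and scripts were tested on simulated data. GC trends were lowess fits (statsmodels 0.14.6, span 0.3) over 11099 and 11630 genes with a GENCODE 29 transcript, matched by gene ID. GENCODE is on GRCh38, so no coordinate was taken from the files. Alternatives were a Student t reference, Wald scores divided by their robust SD, both GC trends, median centring, a mean count of at least 10, and a 100 kb window.

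The members and lists were chosen with earlier results of these data known. Named were all members and DIS3, DIS3L and DIS3L2, called nuclear and cytoplasmic cofactors plus 10 fixed ones, up to 5 called genes of each other list and experiment by lowest adjusted p, the genes around EXOSC4, the 5 nearest to it in both fold changes (mean count of at least 10; 1 of them is not reported here), and CALCRL.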

Additional observations from a re-analysis of the deposited data

How the results depend on the processing

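No paired analysis was possible because the files give summary statistics per gene and not the libraries behind them. Leaving out a replicate, a replicate block and another normalisation were therefore not run. With a Student t reference (6 degrees of freedom for siRNA, 4 for the deletion) the numbers called were 0 of the exosome genes, 0 of the list genes and 0 of the EXOSC4 neighbours in each experiment, from 0, 3 and 1 with siRNA and 1, 23 and 3 after the deletion. Over all genes the t reference called 5 with siRNA and 0 after the deletion (1646 at an unadjusted p under 0.05). Dividing the Wald scores by their robust SD (1.88 in the deletion table) likewise called 0 exosome genes, 0 list genes and 0 neighbours after the deletion, with 0 over all genes (534 unadjusted). With siRNA it left the members, list genes and neighbours called at 0, 3 and 1, and called 262 over all genes, from 390. Removing either GC trend gave 2 exosome genes after the deletion (EXOSC5 beside EXOSC4, which was chosen by this value and is not read as a test), 0 neighbours and 1 member (EXOSC5) in the difference between experiments, from 0. Leaving out EXOSC4 gave 0 members after the deletion. The 100 kb window gave 0 neighbours with siRNA and 2 of 7 after the deletion. The adjusted p of EXOSC5 after the deletion ranged from 0.0108 to 0.976 over these settings. That of CALCRL ranged up to 0.102 with siRNA and up to 0.976 after the deletion. The settings that call fewest genes thus miss CALCRL too, and a loss under them is no evidence that a gene is unchanged. Values of almost 0 with siRNA changed sign: EXOSC9 to -0.0026 with median centring, FBL to -0.0020 and REXO4 to -0.0074 with the GC trend of the last 500 bases removed, and DKC1 to -0.00098 and REXO4 to -0.0020 with that of the whole transcript. All other directions of the exosome genes held in all of these settings. Without values per library, error beyond the deposited SE could not be measured.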
